A study of Mus musculus with 4 samples.

Results

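Natural killer (NK) cells were picked out of single-cell transcriptomes of mouse ascites by their receptor transcripts, and 58 of 98560 kept cells (133849 deposited barcodes) met the rule. A cell was kept if it had 500 to 4800 genes and at most 15% mitochondrial UMIs (unique molecular identifiers, each of which counts 1 captured transcript). A kept cell was called an NK cell if it held at least 2 UMIs of Ncr1, Klrb1c, Klre1 and Eomes together, no UMI of Cd3e, Cd3d or Cd3g, at most 1 of Trdc and Tcrg-C1, and none of Cd79a, C1qa or C1qb. Of the 58 cells, 24 and 29 lay in replicates 1 and 2 of siCont-LNA, and 3 and 2 in replicates 1 and 2 of the libraries labelled siFXR1-LNA. Most values below therefore come from the 53 NK cells of the siCont-LNA libraries.

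NK cells are innate lymphocytes that kill stressed, infected or transformed cells without a rearranged antigen receptor. The decision to kill is set by the balance between activating receptors, such as NKp46 (Ncr1), NK1.1 (Klrb1c) and NKG2D (Klrk1), and inhibitory receptors for MHC class I, which in mice include many members of the Ly49 family and a CD94 (Klrd1) heterodimer; other Ly49 members are activating. Killing runs through granules that hold perforin (Prf1) and granzymes, and NK cells also secrete interferon-gamma and the chemokines Ccl3, Ccl4, Ccl5 and Xcl1. Their relatives among the innate lymphoid cells (ILCs) are marked by genes such as Il7r and Cxcr6, and the transcription factors T-bet (Tbx21) and Eomes separate the groups.

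The study treated female FVB mice that carried intraperitoneal Br-Luc tumors, a luciferase-labelled mouse ovarian cancer line, with locked nucleic acid (LNA) siRNA in jetPEI nanoparticles. The siCont-LNA mice received a scrambled siRNA and the siFXR1-LNA mice an siRNA against Fxr1, and ascites was taken 6 weeks after tumor cell injection; the age of the mice at that time is not in the labels. Each group has 2 libraries of 10x Genomics 3′ profiles, and the ascites of several mice was pooled. SDs and p-values rest on these libraries alone and do not measure the spread between mice. The study describes the libraries of a group as biological replicates, each a pool of several mice, and the labels say nothing on this. The study's methods left out a siFXR1-LNA replicate with few reads, which the labels do not identify, and both are used here. Red cells were lysed before loading.

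The libraries held 36551, 25324, 54665 and 17309 barcodes (both siCont-LNA replicates first, then both of the siFXR1-LNA label), with 101500063, 88346685, 113606837 and 78179267 UMIs. The kept cells numbered 20103, 9090, 53842 and 15525, with median depths of 2678, 3617.5, 1350 and 2795 UMIs. A shallower cell is less likely to hold the 2 receptor UMIs of the rule. The NK cells had median depths of 2839, 3648, 3026 and 2722 UMIs per cell, and their summed UMIs were 63800, 145072, 8236 and 5444. The NK sum of siCont-LNA replicate 2 was the deepest, and that of the library labelled siFXR1-LNA replicate 2 the shallowest. No NK barcode was an NK cell in another library, but 6 NK barcodes recurred among the kept cells of siCont-LNA replicate 2 and the library labelled siFXR1-LNA replicate 1, and the other pairs of libraries shared 0 or 1. Fxr1, the siRNA target, had 1, 2, 0 and 1 UMIs in the NK cells of the 4 libraries, too few to compare between the groups. In B cells, the best-sampled lymphocytes, Fxr1 stood at 57.5 and 48.7 CPM (counts scaled to a total of 1000000) in siCont-LNA. The libraries labelled siFXR1-LNA held 92.2 and 81.9 CPM, so Fxr1 was not lower there.

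The steps of the rule left different parts of each library. In siCont-LNA replicate 1, 108 kept cells had the 2 receptor UMIs, 63 of them had no Cd3 UMI, and 24 were left once Cd79a, C1qa and C1qb had to be at 0. In siCont-LNA replicate 2 the same steps left 98, 44 and 29 cells, in the library labelled siFXR1-LNA replicate 1 they left 7, 4 and 3, and in replicate 2 of that label 17, 6 and 2. The limit on Trdc and Tcrg-C1 removed cells in siCont-LNA replicate 2 alone, from 44 to 42. Cells just inside the rule, with exactly 2 receptor UMIs, numbered 6, 3, 2 and 1, and cells just outside it, with exactly 1, numbered 23, 38, 52 and 13. The cells just inside held 2172, 347, 768 and 0 CPM of Gzma, and the cells just outside 161, 0, 63.1 and 0 CPM, although the latter were the deeper cells in both siCont-LNA libraries (median 4313 and 7289 UMIs against 1761 and 2449). Nkg7 stood at 767, 86.9, 192 and 0 CPM inside and at 104, 23.1, 47.4 and 30.4 CPM outside. Ccl5 stood at 6389, 1303, 3839 and 674 CPM inside and at 2447, 1548, 655 and 896 CPM outside, so it was lower inside in replicate 2 of both groups.

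NK cells were a smaller share of the cells in the libraries labelled siFXR1-LNA, on few cells. Fxr1 itself was not lower in the B cells of those libraries, so the label could not be checked there. Whether the siRNA reached lymphocytes was not tested. The study reports lower Fxr1 in epithelial cells and fewer EpCAM-positive cells by flow cytometry after siFXR1-LNA, neither of which was examined here. In the present counts the direction of each difference between the groups rests on the labels. NK cells made up 0.119% of kept cells in siCont-LNA replicate 1 (95% exact binomial interval 0.0765% to 0.178%) and 0.319% in replicate 2 (0.214% to 0.458%). In the libraries labelled siFXR1-LNA they made up 0.00557% (0.00115% to 0.0163%) and 0.0129% (0.00156% to 0.0465%). The intervals cover counting error only. The means were 0.219% ± 0.141 and 0.00923% ± 0.00517 (SD, n = 2 each), a difference of -0.210 percentage points with a two-sided exact permutation p = 0.33, the smallest p that 2 against 2 libraries allow. The groups did not overlap, and the permutation test cannot pass 0.05 with these numbers of libraries. Without replicate 1 or 2 of the libraries labelled siFXR1-LNA it was -0.206 and -0.214 percentage points, without siCont-LNA replicate 1 or 2 it was -0.310 and -0.110, and with cells of at least 100 genes it was -0.0821. With no limit on Cd79a, C1qa and C1qb, which leaves 63, 42, 4 and 6 NK cells, it was -0.365. With the rule applied to cells thinned to 1000 UMIs, shallower cells left out, it was -0.187. A smaller share was not particular to NK cells. T cells numbered 679 of 20103 and 1270 of 9090 kept cells in siCont-LNA. In the libraries labelled siFXR1-LNA they numbered 177 of 53842 and 371 of 15525. B cells numbered 3454 and 2281 against 558 and 585.

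NK cells were also a smaller share of all NK and T cells in those libraries. They were 3.41% (2.20% to 5.04%) and 2.23% (1.5% to 3.19%) of NK and T cells in siCont-LNA, and 1.67% (0.345% to 4.79%) and 0.536% (0.0650% to 1.92%) in the libraries labelled siFXR1-LNA. The means were 2.82% ± 0.835 and 1.10% ± 0.799 (SD, n = 2 each), with a difference of -1.72 percentage points and again an exact permutation p = 0.33. The groups did not overlap, but the interval of the library labelled siFXR1-LNA replicate 1 contained both siCont-LNA values.

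**Figure D1:**
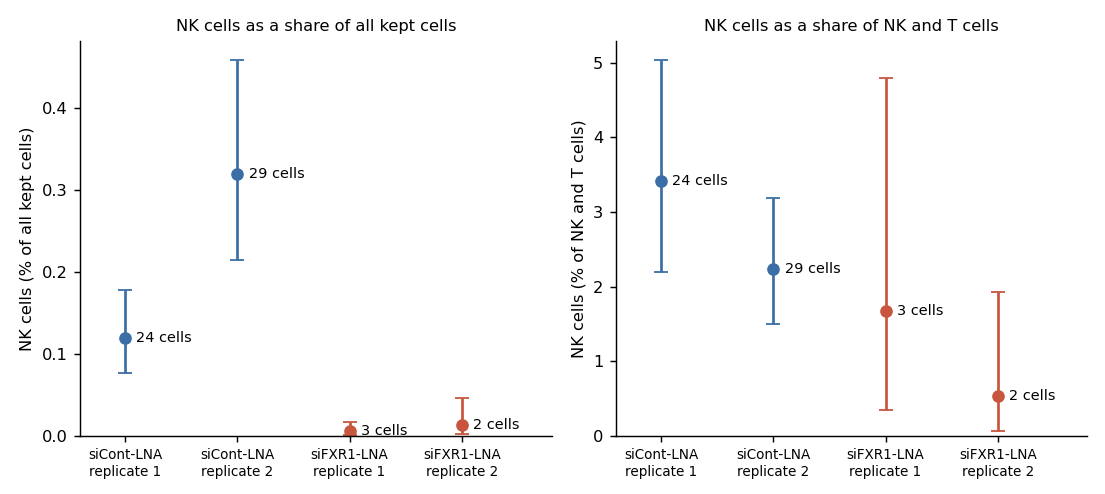
NK cells per library as a percentage of all kept cells (left) and of NK and T cells (right); points are single libraries labelled with their NK cell count, and bars are 95% exact binomial intervals. Both siCont-LNA libraries lie above both libraries labelled siFXR1-LNA, and on the right some of the bars of the groups overlap.

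The markers of the label were present in the siCont-LNA cells. Ncr1, used by the rule, had a UMI in 15 of 24 and 27 of 29 cells, Klrb1c in 18 and 26, Klre1 in 16 and 22, and Eomes in 5 and 6. Gzma and Nkg7, which the rule did not read, had a UMI in 15 and 20 cells and in 19 and 24 cells. Free RNA was checked in B cells, which should lack both genes: in cells thinned to 1000 UMIs, Gzma was seen in 50.0% and 55.2% of NK cells and in 0.1% of B cells of either library, and Nkg7 in 70.8% and 69.0% of NK cells against 0.3% and 0.2% of B cells. Before thinning, the median depths were 2839 and 3648 UMIs in NK cells and 2658.5 and 2900 in B cells. Of the T cell genes that no rule reads, Trac stood at 15.7 and 34.5 CPM in NK cells and 49.1 and 79.6 CPM in CD8 T cells, and Trbc2 at 94.0 and 117 against 186 and 306 CPM. Trbc1 was not lower in NK cells (94.0 and 110 CPM against 94.7 and 87.5 CPM).

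Levels in NK cells were compared with those in CD8 T cells and gamma-delta T cells of the same siCont-LNA libraries, on UMIs summed per library and class. CD8 T cells (95 and 339 cells) had at least 2 Cd3 UMIs, at least 1 of Cd8a or Cd8b1, none of Cd4 and at most 1 of Trdc and Tcrg-C1. Gamma-delta T cells (48 and 47 cells) had at least 1 Cd3 UMI and 2 of Trdc and Tcrg-C1. Both had at most 1 UMI of the NK receptor set and none of Cd79a, C1qa or C1qb. The 15 genes that these rules read were left out. The classes were still chosen in these same cells, so genes that travel with the rule's genes were likely to differ. The fit gives the size of each difference. Its p-value rests on UMI counts and on a spread estimated partly across genes. A small p-value therefore does not mean that both libraries were alike. Ccl4, for example, passed against CD8 T cells with log2 fold changes of 0.54 and 6.06 in siCont-LNA replicates 1 and 2. With edgeR's quasi-likelihood test and Benjamini-Hochberg adjustment over 4502 genes, 472 genes (10.5%) passed an adjusted p of 0.05 against CD8 T cells, 226 higher in NK cells (5.02%) and 246 lower (5.46%). Against gamma-delta T cells 307 genes passed (6.82%), 146 higher (3.24%) and 161 lower (3.58%). The median log2 fold change of all tested genes was -0.05 and -0.01. In simulated counts the fit called 18% and 7% of 2-fold changes, so a gene that was not called may still differ. Both comparisons share the NK sums, and 91 genes were higher and 41 lower in both. The filter on low counts keeps a gene that is abundant in 1 class only, so the list counts below describe the members that passed it and are no test of a list. Fxr1 stood at 15.7 and 13.8 CPM in NK cells (1 and 2 UMIs) against 85.0 and 81.4 CPM in gamma-delta T cells (log2 fold change -2.56, SE 0.76, edgeR adjusted p = 0.026). That call rests on 3 NK UMIs and was lost in DESeq2 (adjusted p = 0.196), without the filter on low counts (0.058), without the library term (0.076) and with the stricter NK rule (0.059). Against CD8 T cells Fxr1 was not called (log2 fold change -1.83, adjusted p = 0.111).

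**Figure D2:**
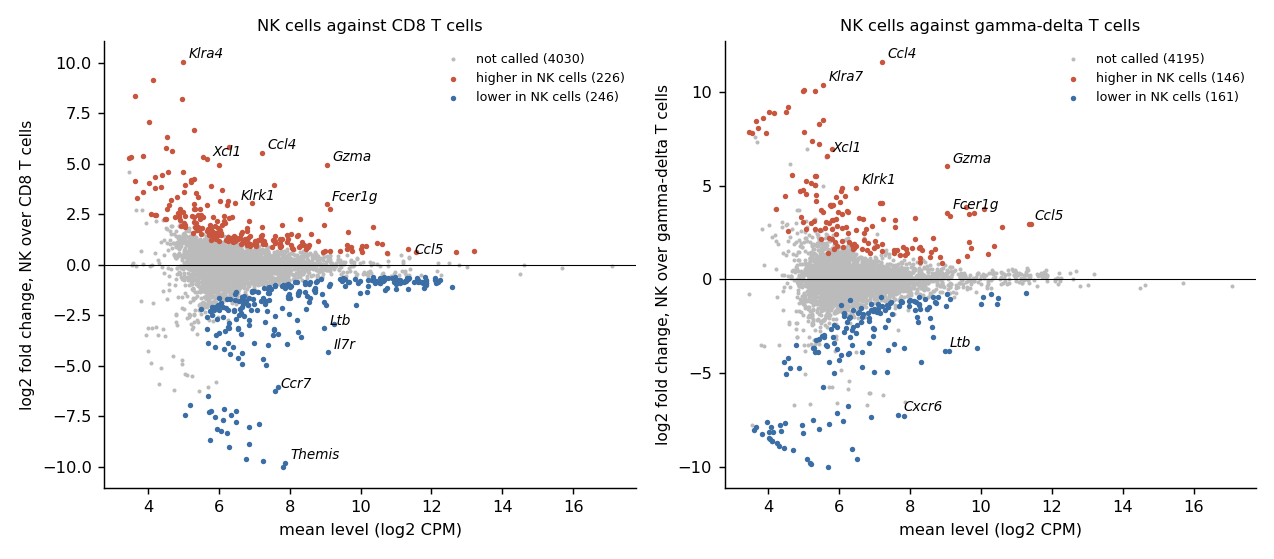
Log2 fold change of NK over CD8 T cells (left) and over gamma-delta T cells (right) against mean level (log2 CPM), 1 point per gene tested, from sums of the 2 siCont-LNA libraries; colored points passed an adjusted p of 0.05 in edgeR. Gzma, Fcer1g and Klrk1 lie above 0 in both panels and Ltb lies below 0 in both.

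Gzma, Gzmb and Prf1, which encode effectors of granule killing, were higher in NK cells than in either T cell class. Gzma, granzyme A, stood at 2492 and 3019 CPM in NK cells, at 59.6 and 91.5 CPM in CD8 T cells and at 0 and 68.9 CPM in gamma-delta T cells. Every NK value lay far above every T cell value, with a log2 fold change of 4.93 over CD8 T cells (SE 0.24, edgeR adjusted p = 9.70e-22) and 6.05 over gamma-delta T cells (SE 0.33, adjusted p = 3.55e-19). Gzmb, granzyme B, stood at 298 and 558 CPM in NK cells and at 73.6 and 18.3 CPM in CD8 T cells. Prf1, the pore-forming perforin, stood at 172 and 338 CPM against 10.5 and 13.5 CPM. The groups did not overlap for either gene, and both were higher in NK cells (log2 fold changes 3.68 and 4.22, SE 0.36 and 0.50, edgeR adjusted p = 6.32e-11 and 8.41e-09); Gzmb was not called by DESeq2 (adjusted p = 0.332).

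Of the 23 listed granule and death ligand genes, 16 passed the filter; 8 of them were higher and 1 was lower than in CD8 T cells, and 7 were higher and none was lower than in gamma-delta T cells. Their median log2 fold change was 1.24 over CD8 T cells and, with genes absent from a class set to their bound, 1.47 over gamma-delta T cells. Serpinb9, the inhibitor that protects killer cells from granzyme B, rose by a log2 fold change of 2.75 and 5.04 over the 2 T cell classes, and the granule protease Ctsw by 1.46 and 1.42. Gzmk, a granzyme of memory CD8 T cells, was the member that was lower: it had no UMI in NK cells and 15 and 57 in CD8 T cells, at least 3.25-fold lower when 3 counts over both libraries are set as the floor. Fasl, the death ligand, had 3 and 10 UMIs and was not called against CD8 T cells (log2 fold change 1.83, SE 0.74, adjusted p = 0.117). Gzmc had 5 UMIs in 2 cells of siCont-LNA replicate 2 and none in replicate 1.

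**Figure D3:**
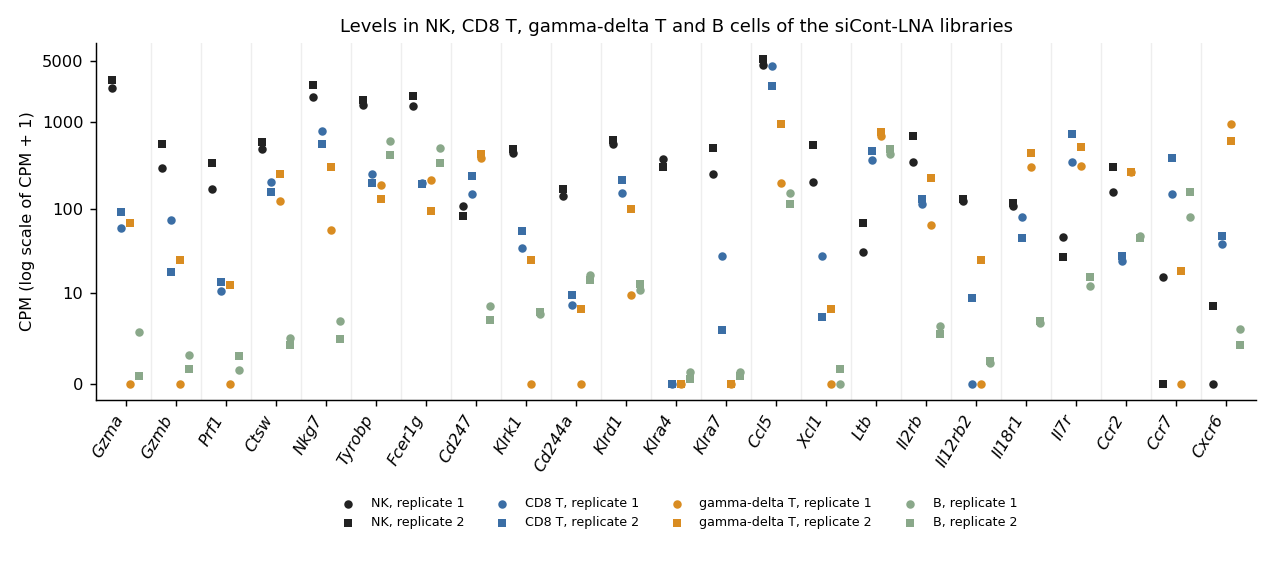
CPM of 23 listed genes in NK, CD8 T, gamma-delta T and B cells, on a log scale of CPM + 1; circles are siCont-LNA replicate 1 and squares replicate 2. Gzma, Prf1, Klrk1 and Klra4 are highest in NK cells in both libraries, Ccl5 is alike in NK and CD8 T cells of replicate 1, and Il7r, Ltb and Cxcr6 are lowest in NK cells among the 3 classes other than B cells.

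The promoters of granule and receptor genes were read for letters that NK cell transcription factors are known to bind. The windows run from 250 bases before to 50 after the start of transcription (RefSeq, GRCm38.p6), and TGTGGTT (RUNX), GGTGTGA (T-box) and GGAAGT (ETS) were searched on both strands. The 91 genes higher in NK cells in both comparisons had 70 with a promoter in the table, and 8 of these (11.4%) held the RUNX letters, against 186 of 3591 tested genes (5.18%) and 1 of the 32 with a promoter among the genes lower in both (3.13%). T-box letters were in 10.0% of the higher, 12.5% of the lower and 4.32% of all tested genes, and ETS letters in 30.0%, 40.6% and 34.8%. A match is a description of these windows and not a bound site. Gzma, Klrk1 and Xcl1 are shown because each was higher in NK cells in both comparisons and holds the RUNX letters; the genes were chosen after their values were seen. They lie at chr13:113100932-113101231, chr6:129623815-129624114 and chr1:164935473-164935772, all on the minus strand, and capitals mark the matches, which in Xcl1 include T-box and ETS letters.
Gzma: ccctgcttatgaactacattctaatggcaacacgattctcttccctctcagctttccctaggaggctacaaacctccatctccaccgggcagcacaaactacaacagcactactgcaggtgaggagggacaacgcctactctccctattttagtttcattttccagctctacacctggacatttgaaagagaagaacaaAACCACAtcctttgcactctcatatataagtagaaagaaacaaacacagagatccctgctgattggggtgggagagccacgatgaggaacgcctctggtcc
Klrk1: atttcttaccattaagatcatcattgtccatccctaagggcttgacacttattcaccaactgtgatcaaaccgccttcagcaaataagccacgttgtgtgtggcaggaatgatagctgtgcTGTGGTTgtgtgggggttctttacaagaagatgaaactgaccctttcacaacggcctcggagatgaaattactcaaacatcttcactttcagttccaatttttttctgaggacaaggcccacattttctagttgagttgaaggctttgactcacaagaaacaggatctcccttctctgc
Xcl1: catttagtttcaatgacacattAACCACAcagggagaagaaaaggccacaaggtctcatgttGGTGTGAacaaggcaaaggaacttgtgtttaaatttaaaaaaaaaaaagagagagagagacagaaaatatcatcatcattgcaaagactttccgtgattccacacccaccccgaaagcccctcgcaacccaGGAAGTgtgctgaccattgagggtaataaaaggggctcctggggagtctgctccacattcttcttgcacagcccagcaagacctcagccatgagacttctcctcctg

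Most of the tested activating receptors were higher in NK cells, and so were some of the adaptors that carry their signal. Of 13 listed activating receptors, 2 are read by the rule and 10 more passed the filter; 7 of the 10 were higher and 1 lower than in CD8 T cells, and 6 were higher and 1 lower than in gamma-delta T cells. Klrk1, which encodes NKG2D, stood at 439 and 496 CPM in NK cells, 35.1 and 54.9 CPM in CD8 T cells and 0 and 25.05 CPM in gamma-delta T cells (log2 fold changes 3.04 and 4.88, SE 0.28 and 0.49, edgeR adjusted p = 1.18e-11 and 1.08e-10). Cd244a, the 2B4 receptor of the SLAM family, was higher by 3.93 and 5.24 on the log2 scale. The exceptions were Slamf6, lower than in CD8 T cells (log2 fold change -3.18), and Cd226, the DNAM-1 receptor, lower than in gamma-delta T cells (log2 fold change -2.19, adjusted p = 8.59e-06).

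Tyrobp (DAP12) and Fcer1g, adaptors with an activating motif, were higher in NK cells than in either T cell class. Tyrobp stood at 1583 and 1806 CPM in NK cells against 252 and 202 CPM in CD8 T cells and 189 and 131 CPM in gamma-delta T cells (log2 fold changes 2.76 and 3.40, SE 0.20 and 0.25, edgeR adjusted p = 1.94e-15 and 1.67e-14). Fcer1g stood at 1552 and 1985 CPM against 200 and 195 CPM and 217 and 93.9 CPM (log2 fold changes 3.00 and 3.56). Both genes were also present in B cells, at 601 and 416 CPM for Tyrobp and 499 and 342 CPM for Fcer1g, below the NK cells of either library. The B cell rule did not bar macrophage transcripts, and both are also myeloid genes: macrophage genes summed to 8112 and 4131 CPM in those B cells and to 1301 and 248 CPM in NK cells. The part of these transcripts in the B cell levels was not tested. Cd247, the zeta chain of the T cell receptor and another adaptor of NK receptors, was lower in NK cells than in either T cell class (log2 fold changes -1.40 and -2.30), and Hcst, the DAP10 partner of NKG2D, was not called (log2 fold changes -0.26 and -0.27). Of the 11 tested adaptor genes 4 were higher and 1 lower in each comparison.

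Ly49 receptors, most of which read MHC class I, were nearly absent from the T cells. All 6 of the 13 listed Ly49 genes that passed the filter (Klra1, Klra3, Klra4, Klra7, Klra8 and Klra9) were higher in NK cells in both comparisons. Klra4 and Klra8, which encode Ly49D and Ly49H, are activating members that signal through Tyrobp. Klra4 had 24 and 44 UMIs in NK cells (376 and 303 CPM) and none in CD8 or gamma-delta T cells, which is at least 167-fold and at least 28.8-fold higher. Klra8 had 22 and 44 UMIs against 0 and 1 in CD8 T cells, and Klra7 had 16 and 73 against 8 and 4. Klra4, Klra7 and Klra8 were not called by DESeq2 against CD8 T cells (adjusted p = 0.355, 0.446 and 0.508), nor against gamma-delta T cells (0.601, 0.118 and 0.609), although the UMI counts did not overlap. Cells differed in which Ly49 gene they held: Klra4 was seen in 10 of 24 and 10 of 29 cells, Klra7 in 8 and 17, Klra8 in 8 and 10, and 44 of the 53 cells held a UMI of at least 1 member. Ly49 genes are near-identical copies that differ between strains, and the reads of FVB mice were aligned to mm10, so the split between members is uncertain.

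Listed inhibitory receptors outside the Ly49 family were higher in NK cells or not called. Of 12 listed, 6 passed the filter, and 4 were higher than in CD8 T cells and 3 higher than in gamma-delta T cells, with none lower. Klrd1, which encodes CD94, stood at 564 and 620 CPM in NK cells and at 154 and 214 CPM in CD8 T cells (log2 fold change 1.44, SE 0.23, edgeR adjusted p = 1.17e-05). Tigit, a checkpoint receptor, had 4 and 16 UMIs in NK cells and none in gamma-delta T cells. Pdcd1 (PD-1) had no UMI in the NK cells of any library, which allows up to 47.0 and 20.7 CPM in the siCont-LNA libraries at 3 counts, and gamma-delta T cells held 37.8 and 37.6 CPM. The 21 listed Klr genes, Ly49 genes included, all lie on chromosome 6 between Klrg1 and Klra2, a span that includes the NK gene complex (chr6:122270596-131247362, GRCm38).

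**Figure D4:**
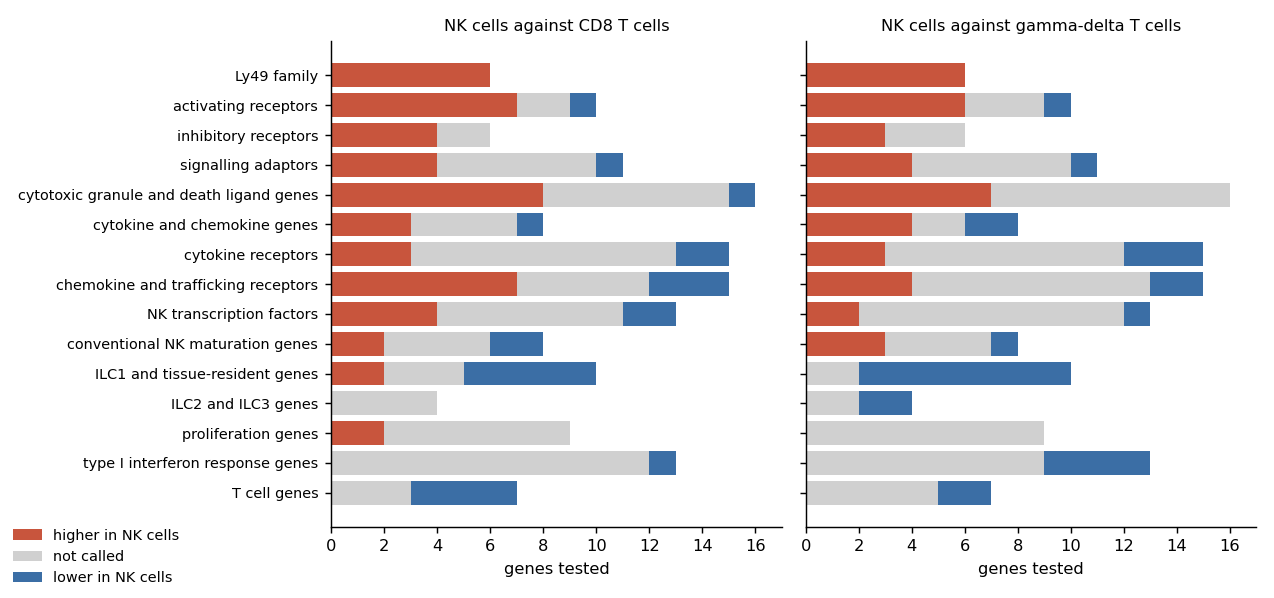
Genes of 15 lists that were tested in NK cells against CD8 T cells (left) and gamma-delta T cells (right); bar segments count genes higher in NK cells, not called and lower in NK cells at an adjusted p of 0.05 in edgeR. The Ly49 bar is wholly higher in both panels, and the ILC1 and tissue-resident bar is mostly lower on the right.

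The lists differed in where their tested members lay. Median log2 fold changes over CD8 T and gamma-delta T cells, with genes absent from a class set to their bound, were 2.63 and 2.53 for activating receptors, 0.51 and 2.83 for adaptors, 1.66 and 2.74 for inhibitory receptors and 6.23 and 4.23 for Ly49 genes, beside -0.05 and -0.01 for all tested genes. They were 0.78 and 1.46 for cytokine and chemokine genes, 0.35 and 0.05 for cytokine receptors, 0.05 and -0.15 for trafficking receptors, and 0.58 and -0.01 for transcription factors. Cytotoxic granule and death ligand genes stood at 1.24 and 1.47 and proliferation genes at 0.93 and 0.81. The list of conventional NK maturation genes stood at -0.67 over CD8 T cells and 1.61 over gamma-delta T cells. The medians were below 0 in both comparisons for the ILC1 and tissue-resident list (-1.88 and -3.52), the ILC2 and ILC3 list (-0.99 and -2.44), the T cell list (-1.62 and -0.39) and the type I interferon response list (-0.31 and -0.94). Of 8 tested cytokine and chemokine genes 3 were higher and 1 lower than in CD8 T cells and 4 were higher and 2 lower than in gamma-delta T cells, and of 15 trafficking receptors the counts were 7 and 3, and 4 and 2. Of 7 tested T cell genes none was higher, and 4 and 2 were lower.

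Chemokine genes were shared out unevenly. Ccl5, a chemokine that draws T cells and monocytes, was among the most abundant transcripts of NK cells at 4592 and 5322 CPM, and CD8 T cells held 4418 and 2628 CPM, so it was not called there (log2 fold change 0.34, SE 0.25, edgeR adjusted p = 0.499). It was higher than in gamma-delta T cells, which held 198 and 964 CPM (log2 fold change 2.96, SE 0.29). Xcl1, which attracts conventional type 1 dendritic cells, stood at 204 and 551 CPM in NK cells against 28.1 and 4.78 CPM in CD8 T cells and 0 and 6.26 CPM in gamma-delta T cells (log2 fold changes 5.22 and 6.60, SE 0.47 and 0.80, adjusted p = 9.07e-12 and 1.70e-08). Of its 80 UMIs in siCont-LNA replicate 2, 35 came from 1 cell.

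Ccl3 and Ccl4 passed the test, with most of their UMIs in 1 cell. Ccl4 had 3 and 238 UMIs in the NK cells and Ccl3 3 and 40, and 1 cell of siCont-LNA replicate 2 held 241 of all 284 UMIs of the pair. Without the 5% of cells with the most UMIs, Ccl4 was still higher than in CD8 T cells (log2 fold change 3.14 in place of 5.53, adjusted p = 0.00012), and Ccl3 no longer passed the filter; DESeq2 did not call Ccl4 (adjusted p = 0.204). With siCont-LNA replicate 1 alone the log2 fold change of Ccl4 was 0.54, with no test. Interferon-gamma (Ifng) had 0 and 1 UMIs in the NK cells, where gamma-delta T cells held 9.44 and 43.8 CPM, and Tnf had 0 and 1. Ltb, lymphotoxin beta, was lower in NK cells than in both T cell classes (log2 fold changes -3.14 and -3.81). Of 8 genes named as NK genes by the study, which were chosen on these samples and are no independent evidence, 6 were tested; 5 were higher than in CD8 T cells and 6 than in gamma-delta T cells.

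In each comparison most tested cytokine receptors were not called, and the called ones went both ways. Il2rb, the shared beta chain for IL-2 and IL-15, stood at 345 and 703 CPM in NK cells against 116 and 131 CPM in CD8 T cells and 66.1 and 225 CPM in gamma-delta T cells (log2 fold changes 1.97 and 1.74, SE 0.25 and 0.30, edgeR adjusted p = 3.51e-08 and 3.26e-05). Il12rb2, a chain of the IL-12 receptor, stood at 125 and 131 CPM against 0 and 8.75 CPM in CD8 T cells (log2 fold change 4.11, SE 0.66). Il18r1 was lower than in gamma-delta T cells (log2 fold change -1.84) and was not called against CD8 T cells (0.86, adjusted p = 0.199). Il7r, the receptor of naive T cells and of most helper-type ILCs, had 3 and 4 UMIs in NK cells, in 2 cells and 1 cell, and was lower by a log2 fold change of -4.34 and -3.82. Of 15 tested cytokine receptors 3 were higher and 2 lower than in CD8 T cells, and 3 were higher and 3 lower than in gamma-delta T cells, which leaves most of them not called.

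Of the trafficking genes, some were higher and some lower in NK cells. Ccr7 and S1pr1, which guide lymphocytes through lymph nodes, were lower than in CD8 T cells (1 and 0 UMIs of Ccr7 against 43 and 492; log2 fold changes -6.25 and -3.87). Ccr2, a receptor for inflammatory chemokines, was higher than in CD8 T cells, at 157 and 303 CPM against 24.5 and 27.9 CPM (log2 fold change 3.03). Against gamma-delta T cells Ccr2 was not called (-0.22). Cxcr6, a receptor of tissue-resident lymphocytes, had 0 and 1 UMIs in NK cells and stood at 944 and 601 CPM in gamma-delta T cells (log2 fold change -7.22, SE 0.56, adjusted p = 5.64e-14). Itga2, the CD49b integrin of conventional NK cells, had 5 and 28 UMIs against 3 and 0 in CD8 T cells (log2 fold change 5.76; DESeq2 adjusted p = 0.286).

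Of the transcription factors, Irf8 and Id2 were higher and Tcf7 and Klf2 lower than in CD8 T cells. Irf8, known from both NK cells and dendritic cells, stood at 188 and 372 CPM against 21.04 and 17.5 CPM (log2 fold change 3.88, SE 0.36, edgeR adjusted p = 1.69e-11). In siCont-LNA replicate 2, 29 of its 54 UMIs came from 1 cell, and with cells of 10 or more class II UMIs left out of every class the log2 fold change was 4.67. Id2, the inhibitor of E proteins that all innate lymphoid cells need, was higher than in CD8 T cells (log2 fold change 1.53) and not called against gamma-delta T cells (0.13). Tcf7, which marks naive and memory T cells, was lower than in CD8 T cells (-2.75) and not called against gamma-delta T cells (-0.26). Tbx21 had 4 and 16 UMIs and passed against CD8 T cells by a small margin (log2 fold change 1.54, adjusted p = 0.0468). Of 13 tested factors 4 were higher and 2 lower than in CD8 T cells, and 2 were higher and 1 lower than in gamma-delta T cells.

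Maturation genes were called in both directions, and genes of ILC1 and tissue-resident cells were mostly lower in NK cells than in gamma-delta T cells. Itgam, the CD11b of mature NK cells, had 12 and 13 UMIs in NK cells, and was higher than in CD8 T cells (log2 fold change 2.74). Of the 8 tested maturation genes 2 were higher and 2 lower than in CD8 T cells, and 3 were higher and 1 lower than in gamma-delta T cells. The maturation list includes Cma1, also on the mast cell list, as its most abundant member in replicate 1. Cma1 stood at 423 and 131 CPM in NK cells and at 501 and 256 CPM in B cells. Klrg1 and Cx3cr1, later markers, had 1 and 12 and 0 and 2 UMIs, and Cd27, of earlier stages, 4 and 6. Kit, of immature NK cells, was seen in 2 of 24 and 12 of 29 cells, and Itga1, the CD49a of tissue-resident cells, in 4 and 10. In B cells, where such UMIs can come from free RNA, Kit stood at 34.0 and 13.7 CPM and Itga1 at 1.24 and 0.953 CPM, against 47.0 and 145 CPM and 78.4 and 124 CPM in NK cells. Kit is also a mast cell gene, its level in replicate 1 was near that of B cells, and 4 of its 21 UMIs in replicate 2 lay in 1 cell rich in class II transcripts. Zfp683 had no UMI in the NK cells of any library. Of 10 tested ILC1 and tissue-resident genes 2 were higher and 5 lower than in CD8 T cells, and none was higher and 8 were lower than in gamma-delta T cells, among them Rora (log2 fold change -4.96), Tmem176a (-3.65) and Tmem176b (-3.06). Of 12 ILC2 and ILC3 genes 10 and 9 had no UMI in the NK cells of siCont-LNA replicates 1 and 2.

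The largest differences included genes outside the lists. Among the 10 largest rises over CD8 T cells were Styk1, a kinase-like gene (8 and 13 UMIs against none, at least 51.6-fold), Klri2 and Klrb1a, and Spp1, osteopontin, with 8 and 68 UMIs against 1 and 3 in CD8 T cells. Spp1 was seen in 4 and 9 NK cells, with 37 UMIs in 1 cell of siCont-LNA replicate 2. The 10 largest falls all had no UMI in NK cells; they included Themis, a T cell selection gene, with 59 and 299 UMIs in CD8 T cells (at least 16.2-fold lower), Cd5, Dapl1 and Il6ra. Against gamma-delta T cells the falls included Actn2 (at least 20.7-fold lower), Blk, Il1r1 and Zbtb16, the PLZF factor of innate-like T cells.

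Abundant housekeeping genes differed by class too. Outside ribosomal, mitochondrial and hemoglobin genes, the 20 most abundant NK transcripts (by UMIs, which count molecules and are not divided by length) began with Cmss1, Tmsb4x, Actb, AY036118 and Tmsb10 and included Gzma, Nkg7, Ccl5 and AW112010. AW112010 stood at 2884 and 2840 CPM against 803 and 613 CPM in CD8 T cells (log2 fold change 1.86, SE 0.20, edgeR adjusted p = 4.92e-10). Actb, beta-actin, and Pfn1, which binds actin, were higher than in CD8 T cells by log2 fold changes of 0.61 and 0.76, and were not called against gamma-delta T cells. Of 79 ribosomal protein genes, a group looked at after the values were seen, 63 were lower than in CD8 T cells and none higher (median log2 fold change -0.77), while against gamma-delta T cells none was lower and 1 was higher (median 0.23).

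The 53 siCont-LNA cells were not uniform. Summed over Gzma, Gzmb, Prf1 and Nkg7, the UMIs per cell ran from 0 to 58 in siCont-LNA replicate 1 (median 8) and from 0 to 125 in replicate 2 (median 21). In all, 29 cells held 10 or more of these UMIs, and 6 held none, 3 in each library. Of those 6 cells, 5 passed the rule with exactly 2 receptor UMIs and 1 with 4. Depth differed between cells, from 1218 to 18222 UMIs, so a cell without a granule UMI may hold unseen transcripts.

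A few cells stood apart among them. The deepest NK-rule cell of each siCont-LNA library, with 6719 and 18222 UMIs, held 213 and 675 UMIs of class II genes, passed on 2 UMIs of Klre1 alone, and had no UMI of Ncr1, Klrb1c, Gzma, Gzmb, Prf1, Nkg7 or any Ly49 gene; their markers go against the label. In replicate 2 that cell also held 115 UMIs of S100a8 and S100a9 of the 135 in all its NK cells. Proliferation genes were at 10 or more UMIs in 4 cells, 1 in replicate 1 and 3 in replicate 2 including the class II cell, with up to 112 UMIs in the cell that also held the Ccl3 and Ccl4 transcripts. Of 9 tested proliferation genes, Mki67 and Hmgb2 passed against CD8 T cells (log2 fold changes 1.94 and 0.93), and none passed against gamma-delta T cells. With siCont-LNA replicate 1 alone Mki67 and Hmgb2 stood at -1.11 and 0.18 against CD8 T cells, with no test. Of 13 tested type I interferon response genes none was higher, 1 was lower than in CD8 T cells and 4 were lower than in gamma-delta T cells. Over all tested genes 5.02% and 3.24% were higher and 5.46% and 3.58% lower in the same comparisons.

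**Figure D5:**
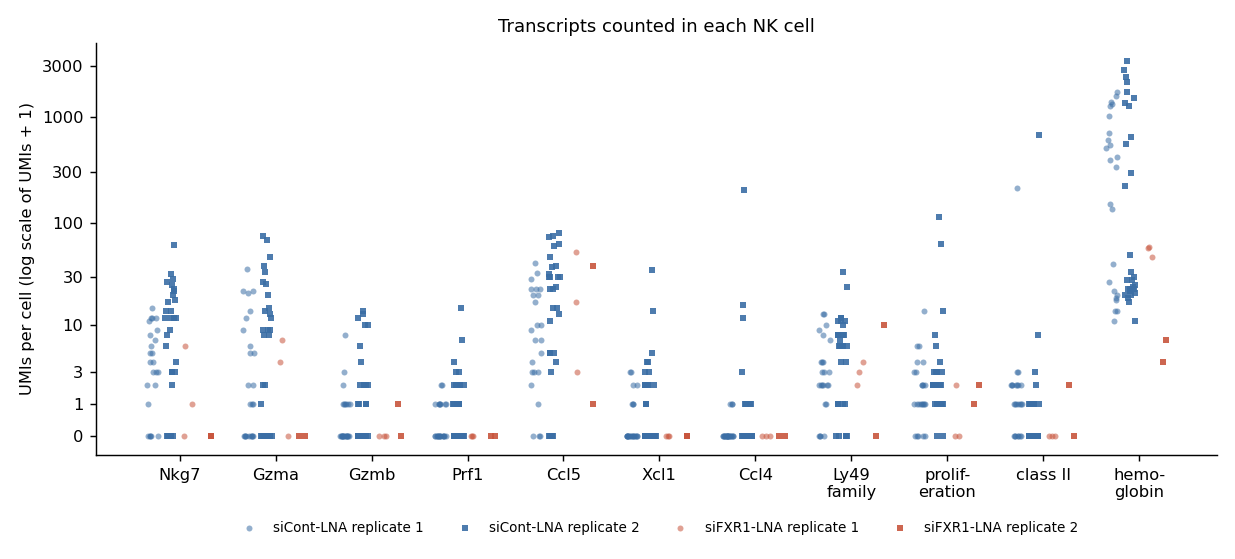
UMIs per NK cell of single genes and of summed Ly49, proliferation, class II and hemoglobin genes, on a log scale of UMIs + 1; each point is 1 cell, colored by group, with circles for replicate 1 and squares for replicate 2. Single siCont-LNA cells stand apart for Ccl4 and class II transcripts, and hemoglobin was present in every siCont-LNA cell, at 11 UMIs or more.

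Transcripts of other cells were present in NK cells and in T cells. Hemoglobin made up 19.0% and 12.7% of the NK UMIs in siCont-LNA and 1.98% and 0.202% in the libraries labelled siFXR1-LNA; in CD8 T cells it made up 13.7%, 14.7%, 7.03% and 1.81%. At least 100 hemoglobin UMIs were in 15 of 24 and 12 of 29 siCont-LNA NK cells and in none of the other 5. The mast cell and basophil list summed to 1097 and 310 CPM in NK cells and 1059 and 481 CPM in CD8 T cells, with Cma1 first, and the tumor and mesothelial list to 517 and 110 CPM against 645 and 165 CPM. Macrophage genes summed to 1301 and 248 CPM, with Lyz2 first at 44 and 20 UMIs, against 764 and 311 CPM in CD8 T cells. Neutrophil genes summed to 47.0 and 1075 CPM against 31.6 and 558 CPM. S100a9 passed the test as higher in both comparisons, with 75 of its 85 UMIs of siCont-LNA replicate 2 in the class II cell, and its sign turned when cells of 10 or more class II UMIs were left out of every class (log2 fold change -1.86 against CD8 T cells). Of the dendritic cell list 3 genes were tested, and 1 was higher and 2 were lower than in CD8 T cells. Against gamma-delta T cells 1 was higher and none was lower. Itgax was the gene higher than in both T cell classes (14 and 26 UMIs, log2 fold changes 3.55 and 5.53), and mature NK cells are known to carry it. Cd209a and Siglech were at 0 in NK cells. Other dendritic cell genes were seen in siCont-LNA replicate 2: Clec9a had 8 UMIs in 1 cell (55.1 CPM against 1.59 CPM in CD8 T cells), Flt3 3 UMIs in 1 cell and Zbtb46 7 UMIs in 2 cells. B cell genes summed to 141 and 96.5 CPM and platelet genes to 78.4 and 34.5 CPM. The part of these transcripts in the comparisons was tested only by leaving out cells with many class II or hemoglobin UMIs, or the hemoglobin genes. With the hemoglobin genes left out of the counts, 473 and 311 genes were called, 469 and 305 of them also called with these genes in.

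The 5 NK cells of the libraries labelled siFXR1-LNA were not tested for gene changes, since both libraries fell below the minimum of 10 NK cells set here for a fit. Their sums of 8236 and 5444 UMIs mean that a count of 0 allows up to 364 and 551 CPM at the floor of 3 counts, for counting error only. Ncr1 was at 0 in all 5 cells, against 549 and 689 CPM in siCont-LNA, and the label rests there on Klrb1c (4 and 4 UMIs), Klre1 (1 and 1) and Eomes (2 and 1). The rule reads all these genes, so their levels are a description.

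Gzma had 11 UMIs in the library labelled siFXR1-LNA replicate 1 (1336 CPM, 95% exact Poisson interval 667 to 2390), in 2 of 3 cells, and none in replicate 2. Nkg7 had 7 UMIs and none. Ccl5 had 72 and 40 UMIs (8742 CPM, 6840 to 11009, and 7348 CPM, 5249 to 10005) against 4592 and 5322 CPM in siCont-LNA, but 52 and 39 of them came from 1 cell in each library. Ly49 genes had 9 and 10 UMIs, in 3 of 3 and 1 of 2 cells, and the cell with 10 had 1 UMI of Gzmb and none of Gzma, Prf1 or Nkg7. Prf1, Cd244a and Ifng were at 0 in all 5 cells, against 172 and 338, 141 and 172, and 0 and 6.89 CPM in siCont-LNA. All these levels lie below the 364 and 551 CPM that a count of 0 allows here, so the counts cannot show a loss. Xcl1, Ccl3 and Ccl4 were also at 0, against 204 and 551, 47.0 and 276, and 47.0 and 1641 CPM in siCont-LNA. Of these, only the Xcl1 and Ccl4 levels of siCont-LNA replicate 2 lay above 364 CPM, and 1 cell held 35 and 203 of those UMIs.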

How the data were processed

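The authors deposited gene-by-barcode matrices of whole UMI counts, made with Cell Ranger 7.0.0 on mm10 per the labels; the study's reporting summary gives the same version, its methods another version and chemistry. Counts were used as deposited. Cells were kept and classed by the rules in the results; B cells had at least 2 UMIs over B cell genes that include Cd79a and Ms4a1, and no Cd3 UMI. Some genes are not reported here. No doublet caller was run. The members and gene lists were chosen with earlier results of these data known.

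UMIs were summed per library and class, and CPM were computed from these sums. Libraries with under 10 NK cells by the rule (a limit not applied again where a setting removed cells) were left out of the fits with all their classes, so the NK, CD8 T, CD4 T and gamma-delta T sums of the 2 siCont-LNA libraries entered edgeR 4.0.16 (R 4.3.3) with TMM scaling, its filter on low counts, the library as a term and the quasi-likelihood test. DESeq2 1.42.0, no library term, no low-count filter, a stricter NK rule and leaving out cells or libraries were alternatives. Shares used exact permutation over libraries and exact binomial or Poisson intervals, in Python 3.11.15 with numpy 2.4.6 and scipy 1.17.1. The fitting code was tested on simulated counts. It called 71% of genes changed 4-fold and 18% of those changed 2-fold against CD8 T cells. Against gamma-delta T cells it called 52% and 7%. Unchanged genes called numbered 2 and 0. Genes that could be named were list members, the 20 most abundant NK genes, and per comparison the 10 largest rises and falls past an adjusted p of 0.05 with the same sign in both libraries, without rule genes, receptor segments and Gm or Rik models. Gene positions are GENCODE vM21 on GRCm38, matched for 99.6% of gene IDs.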

Additional observations from a re-analysis of the deposited data

How the results depend on the processing

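The share differences kept their sign in every setting run. Leaving out 1 library each gave -0.310 to -0.110 percentage points of kept cells and -2.31 to -1.13 of NK and T cells, and keeping cells of at least 100 genes gave -0.0821 of kept cells and no limit on Cd79a, C1qa and C1qb -0.365. The replicate block left the differences at -0.210 and -1.72 with an exact permutation p = 0.5, the smallest a block allows; the labels do not say that the numbers pair libraries (r = 0.271 across 3059 genes of T cell sums). The count of genes called fell from 472 to 199 with DESeq2, to 120 with no library block and to 224 (of 2551 tested, with 9 and 17 NK cells left) without cells of 100 or more hemoglobin UMIs against CD8 T cells, and from 307 to 148, 114 and 115 against gamma-delta T cells. Of the genes called against CD8 T cells, 33.9% were higher without those hemoglobin cells and 39.6% without the low-count filter (which moved the median of all genes to -0.36), in place of 47.9%. Of 259 listed genes, 22 were in at least 25% of siCont-LNA NK cells thinned to 1000 UMIs, 13 at 500 UMIs and 79 as deposited. Of 1531 gene values from fits with a test, 1374 held, 150 lost significance and 7 reversed. The 1531 and the 1374 include a setting with the siCont-LNA libraries only. That setting was the main fit itself, so its values held by construction. Of 318 values from 1 library, 229 held, 87 moved by more than the SD between the 2 libraries and 2 reversed. Against CD8 T cells Ckb went to -1.13 with at least 3 receptor UMIs and -1.58 without siCont-LNA replicate 2 (1.55 without replicate 1), Mki67 to -1.11 without replicate 2 (2.87 without replicate 1), and S100a9 to -1.94, -0.95 and -1.86 with 3 receptor UMIs, without the deepest 5% of cells and without class II cells; S100a9 against gamma-delta T cells went to -1.51, -1.23 and -1.27. The cause was not tested. Leaving out a library gave no count of calls, since no residual degrees of freedom remained, and gene tests of siFXR1-LNA against siCont-LNA were not run, since those libraries held under 10 NK cells.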
